A study of Mus musculus with 7 samples.

Results

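The 34 genes described here are transcripts by which astrocytes, the glial cells that tile the brain and wrap its synapses and vessels, are usually recognized. They were taken by gene name from a table of 46333 genes, and all 34 were found once in every library. RNA came from isolates labeled as neurons, which had been enriched from whole brain in the il4ra fl/fl.Syn cre line. There were 3 cre+ libraries (SynCre +, IL-4R fl/fl) and 4 cre- libraries (SynCre -, IL-4R fl/fl). Both genotypes carried the loxP-flanked il4ra alleles, and only cre+ mice carried Cre, which is driven by the synapsin promoter, active in neurons, and removes exons 7 to 9 of il4ra, the gene of the interleukin-4 receptor alpha chain. The animals were littermates and adult females, with an age of 10 to 15 weeks given for the isolation and 12 to 16 weeks for the sequenced mice. Neurons were enriched by removing astrocytes, oligodendrocytes and microglia with antibodies on magnetic beads, so the astrocyte transcripts measured here are those left after a step meant to remove their cells. The comparison asks how the level of these transcripts in the isolates differs between cre+ and cre- mice. No library carried Cre without the loxP-flanked alleles, so Cre itself and loss of the receptor cannot be told apart.

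Astrocytes clear glutamate from the synaptic cleft with the transporters encoded by Slc1a2 and Slc1a3 and turn it into glutamine with glutamine synthetase, encoded by Glul. They are coupled to each other by gap junctions of the connexins encoded by Gja1 and Gjb6, and their endfeet on vessels carry the water channel encoded by Aqp4. They also secrete lipoproteins and matrix proteins, and Gfap encodes the intermediate filament protein used most often to stain them. Several of these genes are known to be transcribed outside astrocytes as well. Glul and Apoe are also transcribed in other glia, and Sparcl1 in brain endothelium and some neurons.

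Library totals ran from 75707411 to 94376841 counts in cre+ and from 68213223 to 89951002 counts in cre-, and no 2 libraries were identical. Il4ra itself, counted over the whole gene and so without resolving the deleted exons, had 24.4 to 29.5 CPM (counts per library size after TMM scaling) in cre+ and 20.03 to 29.6 CPM in cre-. The labeled cell type was set against 12 neuron markers, which made up 0.117 to 0.230% of counts in cre+ and 0.240 to 0.382% in cre-. A list of 12 endothelial markers took 1.36 to 1.96% in cre+ and 0.947 to 1.37% in cre-, more than the neuron list in every library. These shares take no account of transcript length and do not give the share of cells of each type. No marker of either list was at 0 in any library.

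The 34 astrocyte genes together took 0.515, 0.620 and 0.541% of all counts in cre+ replicates 1 to 3. In cre- replicates 1 to 4 they took 0.401, 0.329, 0.420 and 0.383%. Every cre+ library was therefore above every cre- library for this sum, but the sum is carried by few genes. Glul, Apoe, Sparcl1 and Clu held between 66.8 and 78.3% of the astrocyte counts in each library. The other 30 genes took 0.112, 0.175 and 0.149% in cre+, against 0.116, 0.0978, 0.139 and 0.0870% in cre-. Without the 4 abundant genes the genotypes overlapped, with cre+ replicate 1 below cre- replicates 1 and 3. In bulk RNA, more astrocytes in an isolate, more RNA per astrocyte and transcripts of these genes from other cells cannot be told apart. A share of counts also depends on the counts of all other transcripts in the library.

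Levels differed widely between the genes when set per kilobase of the canonical transcript. Averaged over the 7 libraries, Glul had 547, Apoe 405, Sparcl1 306 and Clu 197 CPM per kilobase, all at or above percentile 99.1 of the tested genes. Mt3, a metallothionein that binds zinc and copper, had 97.2 and Ndrg2 65.5 CPM per kilobase. At the other end stood Agt, the precursor of angiotensin, with 0.611, and Cldn10, a claudin, with 0.776 CPM per kilobase. Classic astrocyte markers were spread over this scale. Aqp4 had 1.85 and Gfap 2.82 CPM per kilobase, at percentiles 31.9 and 38 of all tested genes, while Slc1a2, Slc1a3 and Gja1 stood at percentiles 63.2, 70.6 and 74.5, and 11 of the 34 genes lay below percentile 50. The lowest single count of any of the 34 was 26, for Aqp4 in cre- replicate 4, so none was at 0 in any library.

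Of the 34 genes, 32 had a positive log2 fold change (cre+ minus cre-) and 2 a negative one, Bcan and Ttyh1. The median was 0.75, against -0.04 over all 21542 tested genes, of which 46.04% were positive. In edgeR's quasi-likelihood test none of the 34 passed an adjusted p of 0.05, and the background was the same, with 0% of all tested genes called and a lowest adjusted p of 0.0939. At an unadjusted p below 0.05, 17 of the 34 were higher in cre+ and 0 lower, against 10.2% and 9.75% of all tested genes. Leaving out cre+ replicate 2 gave 10 in place of 17 (8.05% of all tested genes), and cre+ replicate 3 gave 11 (9.17%). Among the cre- libraries, dropping replicate 1 gave 15 (10.3%), replicate 2 gave 9 (7.46%) and replicate 4 gave 10 (9.95%). The count rose to 20 (7.57%) once cre+ replicate 1 was dropped. Dropping cre- replicate 3 raised it to 23 (8.29%). Scaling by library totals alone gave 11 (5.5%). limma-voom called 0 of the 34 and 0 of all 21542 genes.

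DESeq2, which the processing notes name, called 10 of the 34 higher in cre+ and 0 lower at an adjusted p below 0.05. Of the 16345 genes with an adjusted p, 6.7% were called higher and 5.48% lower. Each further DESeq2 background is likewise a share of the genes with an adjusted p in its setting. The 10 were Glul, Apoe, Htra1, Aldh1l1, Sparcl1, Fgfr3, Gja1, Ndrg2, Gfap and Slc39a12. Of the 34, 9 had no overlap in CPM between genotypes with cre+ above cre-, and 0 had cre+ below cre-. The background of such genes was 8.94% higher and 9.72% lower. These 9 were the DESeq2 calls other than Slc39a12. DESeq2 called 6 with cre+ replicate 2 left out (background 2.8%). It also called 6 with cre- replicate 2 left out (background 2.71%), and 17 with cre- replicate 3 left out (background 3.4%). Glul, Apoe, Htra1, Aldh1l1 and Sparcl1 were called in all 12 DESeq2 settings that were run, and 12 of the 34 genes were called in none. The other 5 calls were lost when certain libraries were left out. Fgfr3 was not called without cre+ replicate 2 or cre- replicate 2, Gja1 not without cre+ replicate 2 or 3, and Gfap not without cre+ replicate 1 or 3 or cre- replicate 1 or 2. Ndrg2 was not called without cre+ replicate 1 or 2 or cre- replicate 2, 3 or 4, and Slc39a12 not without cre+ replicate 2 or cre- replicate 2, 3 or 4. With every library kept, Slc39a12 was also not called with TMM factors, and neither Slc39a12 nor Ndrg2 with a block for replicate number.

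**Figure D1:**
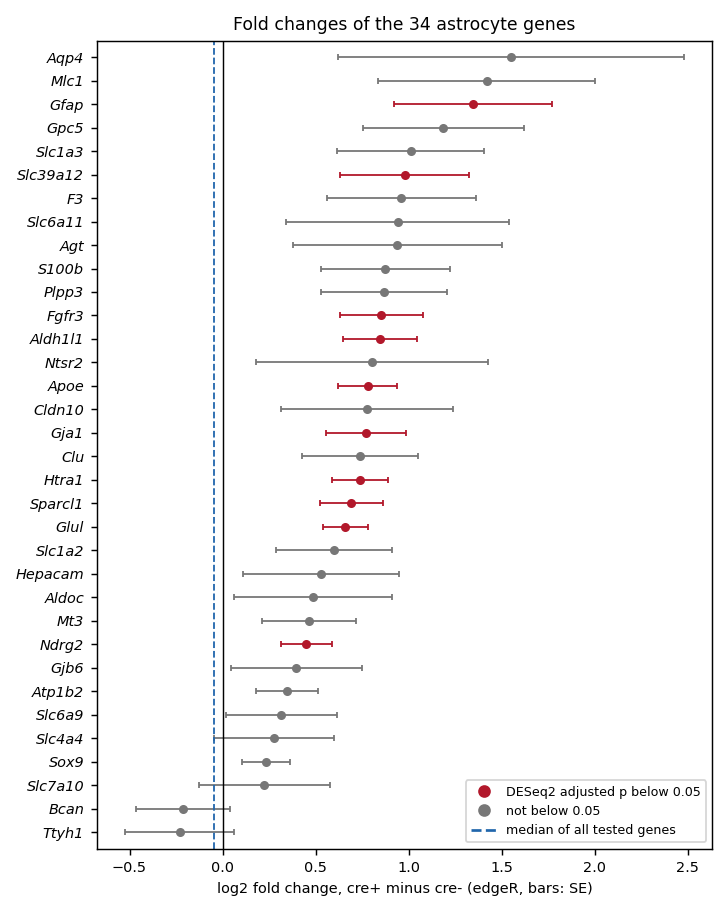
Log2 fold change (cre+ minus cre-, edgeR) on the horizontal axis for each of the 34 astrocyte genes, with standard errors as bars; red points have a DESeq2 adjusted p below 0.05, gray points do not, and the dashed line is the median of all tested genes. All but Bcan and Ttyh1 lie to the right of 0, and Aqp4 has both the largest fold change and the widest bar.

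Promoter sequences were taken from RefSeq (build GRCm38.p6), as the 250 bases before the first listed start of each gene, and 29 of the 34 genes matched. The missing entries were Aqp4, Atp1b2, Clu, Sox9 and Sparcl1. SOX and NFI factors are known to act in astrocyte development, and STAT6 is the factor that interleukin-4 receptors activate, so their core letters were searched on both strands. A SOX core (AACAAT or AACAAAG) was in 1 of the 29 windows, Apoe, and in 14.02% of all 27025 promoter windows. The NFI core TTGGCA was in 3 of the 29, Aldoc, Hepacam and S100b, and in 12.53% of all windows. The STAT6 pattern TTCNNNNGAA was in 1 of the 29, Gfap, and in 5.86% of all windows, and the STAT3 pattern TTCNNNGAA was in 3 of the 29, Agt, Ntsr2 and Slc1a3, and in 7.18%. Matches of the STAT6 and STAT3 patterns cannot share a TTC or a GAA. The windows of Apoe, S100b and Gfap are printed because each carries 1 of the first 3 patterns, in capitals, in a gene described below; Gfap was chosen after its match was seen. A match is a run of letters and not a measured binding site.
Apoe, chr7:19699189-19699438, minus strand: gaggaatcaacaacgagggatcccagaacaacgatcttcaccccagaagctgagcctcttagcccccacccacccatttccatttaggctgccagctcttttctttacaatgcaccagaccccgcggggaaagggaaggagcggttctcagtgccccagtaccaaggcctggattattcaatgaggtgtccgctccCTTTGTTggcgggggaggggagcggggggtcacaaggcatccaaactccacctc
S100b, chr10:76253586-76253835, plus strand: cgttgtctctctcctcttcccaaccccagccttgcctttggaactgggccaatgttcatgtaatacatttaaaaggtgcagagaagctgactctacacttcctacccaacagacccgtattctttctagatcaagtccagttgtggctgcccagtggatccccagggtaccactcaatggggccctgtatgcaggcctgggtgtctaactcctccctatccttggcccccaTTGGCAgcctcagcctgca
Gfap, chr11:102897201-102897450, minus strand: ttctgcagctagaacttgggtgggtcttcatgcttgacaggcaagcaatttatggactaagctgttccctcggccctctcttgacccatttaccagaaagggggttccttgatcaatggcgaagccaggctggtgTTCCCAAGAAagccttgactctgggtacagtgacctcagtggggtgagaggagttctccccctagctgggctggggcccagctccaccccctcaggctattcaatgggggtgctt

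Among the 6 genes of transmitter uptake and glutamine synthesis, all 6 fold changes were positive, with a median of 0.63. DESeq2 called 1 of the 6 higher, against 6.7% of all genes with an adjusted p. That gene was Glul (chromosome 1, 153775690 to 153785469, GRCm39), which makes glutamine from the glutamate that astrocytes take up. Glul had 1182, 1150.1 and 1204 CPM in cre+ and 717, 656, 785 and 824 CPM in cre-. The 3 cre+ libraries lay within 1.05-fold of each other and all stood above the highest cre- library. The log2 fold change was 0.66 ± 0.12 (SE), with an edgeR adjusted p of 0.0939 and a DESeq2 adjusted p of 4.43e-06, the smallest DESeq2 value of the 34.

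The glutamate transporters spread more. Slc1a3 (GLAST) had 57.5, 87.0 and 86.1 CPM in cre+ and 30.6, 31.4, 71.6 and 19.1 CPM in cre-. Only cre- replicate 3 overlapped the cre+ range, and the log2 fold change of 1.01 ± 0.40 had an edgeR adjusted p of 0.208 and a DESeq2 adjusted p of 0.0597. Slc1a2 (GLT-1), the main glutamate transporter of the forebrain, had 105, 188 and 139 CPM in cre+ and 115, 71.7, 136 and 57.3 CPM in cre-. Here cre- replicates 1 and 3 both lay above cre+ replicate 1, and the log2 fold change was 0.60 ± 0.31 (edgeR adjusted p = 0.323). Slc6a11, which takes up GABA and was picked, like Mlc1 and Atp1b2 below, after its values were seen, had 26.9, 25.1 and 22.4 CPM in cre+ and 11.1, 7.08, 30.05 and 3.49 CPM in cre-. Its highest library of all 7 was thus a cre- one, replicate 3, while the other 3 cre- libraries lay below every cre+ library. The glycine transporter Slc6a9 and the serine and glycine transporter Slc7a10 had fold changes of 0.32 ± 0.30 and 0.23 ± 0.35 on the log2 scale. For Slc7a10, 50.2% of exon bases are shared with Lrp3 on the opposite strand, and for Slc6a9 23.5% with Ccdc24. The use of strand in counting is not given, so reads from these gene pairs cannot be told apart.

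Of the 9 genes of water, ion and gap junction proteins, 8 fold changes were positive, with a median of 0.53. DESeq2 called 1 of the 9 higher, Gja1, against 6.7% of all genes with an adjusted p. Gja1 (chromosome 10, 56253426 to 56278609), the main astrocyte connexin, had 77.4, 96.8 and 108 CPM in cre+ and 34.9, 61.4, 67.4 and 57.1 CPM in cre-. All cre+ libraries exceeded all cre- libraries, with a log2 fold change of 0.77 ± 0.22 (edgeR adjusted p = 0.117, DESeq2 adjusted p = 0.0168). Gjb6, the other astrocyte connexin of the list, had a log2 fold change of 0.40 ± 0.35 and overlapped between genotypes.

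Aqp4 (chromosome 18, 15522553 to 15544039), the water channel of the endfeet, had the largest fold change of the 34 and the widest spread. It had 10.9, 17.8 and 17.1 CPM in cre+ and 2.37, 3.13, 15.04 and 0.323 CPM in cre-. The 3 cre+ libraries lay within 1.63-fold of each other, whereas the 4 cre- libraries differed by 46.5-fold. The log2 fold change was 1.55 ± 0.93 (edgeR adjusted p = 0.393), and it was 2.97 without cre- replicate 3. Mlc1 encodes a membrane protein of the same endfeet that is held in place by the adhesion protein of Hepacam. Its level was 14.4, 36.8 and 30.6 CPM in cre+ and 6.87, 5.92, 23.6 and 4.44 CPM in cre-, again with cre- replicate 3 alone inside the cre+ range. The log2 fold change of Mlc1 was 1.42 ± 0.58 and that of Hepacam 0.53 ± 0.42, with edgeR adjusted p values of 0.226 and 0.525.

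Atp1b2 encodes a sodium pump subunit and is the gene of ACSA-2, the surface antigen used to stain astrocytes when the purity of the isolates was assessed. It had 93.4, 123 and 111 CPM in cre+ and 98.6, 79.2, 99.9 and 65.3 CPM in cre-. The genotypes overlapped through cre+ replicate 1, and the log2 fold change was 0.35 ± 0.17 (edgeR adjusted p = 0.285). Ttyh1, a chloride channel family member, had the most negative fold change of the 34, -0.23 ± 0.29 (edgeR adjusted p = 0.719). It had 37.9, 79.2 and 67.96 CPM in cre+ and 82.1, 70.9, 91.8 and 44.8 CPM in cre-, and cre+ replicate 1 was the lowest of all 7 libraries. Without that library the log2 fold change was 0.020. Slc4a4, a bicarbonate transporter, and Cldn10 had log2 fold changes of 0.28 ± 0.32 and 0.77 ± 0.46, and neither was called with all 7 libraries.

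**Figure D2:**
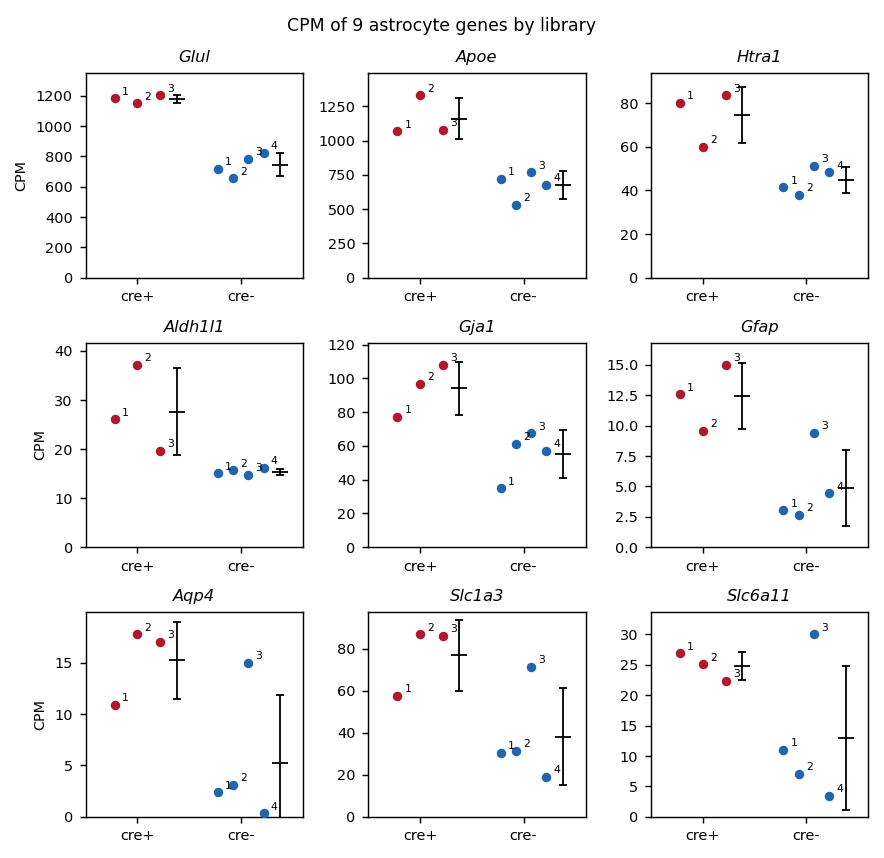
CPM on the vertical axis, starting at 0, for 9 astrocyte genes in the cre+ (red, left) and cre- (blue, right) libraries, with replicate numbers beside the points and the mean and SD as black marks (the lower bar of Aqp4 in cre- is cut off at 0). In the upper 6 panels no cre- point reaches the lowest cre+ point, and in the lower 3 the point of cre- replicate 3 lies inside or above the cre+ range.

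Of the 8 genes of secreted, matrix and surface proteins, 7 fold changes were positive, with a median of 0.76. DESeq2 called Apoe, Sparcl1 and Htra1 higher, against 6.7% of all genes with an adjusted p. Apoe (chromosome 7, 19430034 to 19433113), the main lipid carrier made in the brain and the gene of the printed window with the SOX core, had 1068, 1332 and 1081 CPM in cre+. In cre- it had 724, 532, 768 and 680 CPM, all below the lowest cre+ library. The log2 fold change was 0.78 ± 0.16, with an edgeR adjusted p of 0.0939 and a DESeq2 adjusted p of 0.000267. Sparcl1 (chromosome 5, 104226977 to 104261599), a matrix protein known to promote synapse formation, had 1774, 1383 and 1430.4 CPM in cre+ and 1077, 756, 867 and 1085 CPM in cre-. It did not overlap between genotypes, and its log2 fold change was 0.69 ± 0.17 (edgeR adjusted p = 0.099, DESeq2 adjusted p = 0.00369). Htra1 (chromosome 7, 130537841 to 130587390), a secreted serine protease, had 80.05, 59.9 and 83.7 CPM in cre+ and 41.4, 38.05, 51.2 and 48.4 CPM in cre-. Its genotypes were also separate, with a log2 fold change of 0.74 ± 0.15 (edgeR adjusted p = 0.0939, DESeq2 adjusted p = 0.0015).

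The other 5 genes of this group overlapped between genotypes. Clu, a secreted chaperone, averaged 463 ± 214 CPM in cre+ (SD, n = 3) and 278 ± 77.2 CPM in cre- (SD, n = 4), with a log2 fold change of 0.74 ± 0.31. Without cre+ replicate 2, at 699.7 CPM its highest library, that was 0.31, and of the 12 DESeq2 settings Clu was called higher only without cre+ replicate 1 or without cre- replicate 1. A list of 12 choroid plexus markers, described below, was also highest in cre+ replicate 2, at 2.84% of counts. The part of other cells in the Clu level was not tested. Gpc5, a heparan sulfate proteoglycan, F3, the coagulation starter tissue factor, and Agt had log2 fold changes of 1.19 ± 0.43, 0.96 ± 0.40 and 0.94 ± 0.56. With all 7 libraries none of these 4 passed an adjusted p of 0.05 in edgeR or DESeq2. Agt shares 29.7% of its exon bases with Cog2 and F3 20.7% with a predicted gene, each on the opposite strand. Bcan, a proteoglycan of the matrix around synapses that is also known from oligodendrocyte precursors, was the second gene with a negative fold change, -0.21 ± 0.25 (edgeR adjusted p = 0.695).

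All 8 genes of cytoskeleton, metabolism and metal handling had positive fold changes, with a median of 0.86. DESeq2 called Aldh1l1, Ndrg2, Gfap and Slc39a12 higher, against 6.7% of all genes with an adjusted p. Aldh1l1 (chromosome 6, 90463409 to 90577185), a folate enzyme widely used as a pan-astrocyte marker, had 26.1, 37.2 and 19.6 CPM in cre+ and 15.1, 15.7, 14.7 and 16.2 CPM in cre-. Its cre- libraries lay within 1.10-fold of each other, the tightest of the 34, and all below the lowest cre+ library. The log2 fold change was 0.84 ± 0.20 (edgeR adjusted p = 0.0978, DESeq2 adjusted p = 0.00534). Gfap (chromosome 11, 102778162 to 102791738), whose window above holds the STAT6 pattern, had 12.6, 9.60 and 15.02 CPM in cre+ and 3.04, 2.65, 9.40 and 4.44 CPM in cre-. The highest cre- library, replicate 3, came close to the lowest cre+ library but did not reach it. The log2 fold change was 1.35 ± 0.43 (edgeR adjusted p = 0.15, DESeq2 adjusted p = 0.0222).

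Ndrg2 (chromosome 14, 52142728 to 52151615), a cytoplasmic protein typical of astrocytes, had 178, 235 and 169 CPM in cre+ and 159.9, 128, 143 and 137 CPM in cre-. The genotypes were separate by a small margin, with a log2 fold change of 0.45 ± 0.14 (DESeq2 adjusted p = 0.0406), which was 0.29 without cre+ replicate 2. Slc39a12, a zinc importer, had 16.9, 51.6 and 24.2 CPM in cre+ and 18.99, 12.1, 14.6 and 17.1 CPM in cre-. It overlapped through cre+ replicate 1, which lay below cre- replicates 1 and 4, and its DESeq2 adjusted p was 0.0484. Its log2 fold change was 0.98 ± 0.35 and fell to 0.39 without cre+ replicate 2, its highest library. S100b, a calcium-binding protein also made by oligodendrocytes, had 14.02, 39.6 and 42.5 CPM in cre+ and 19.9, 12.7, 18.6 and 18.8 CPM in cre-. Replicates 2 and 3 of cre+ were both above every cre- library but replicate 1 was below 3 of the 4, and the log2 fold change was 0.88 ± 0.35 (edgeR adjusted p = 0.212). Plpp3, Aldoc and Mt3 had log2 fold changes of 0.87 ± 0.34, 0.49 ± 0.42 and 0.47 ± 0.25 and were not called with all 7 libraries.

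The last 3 genes were a transcription factor and a pair of receptors. Fgfr3 (chromosome 5, 33879018 to 33894412), a fibroblast growth factor receptor, had 27.3, 39.7 and 31.4 CPM in cre+ and 15.6, 13.4, 25.2 and 18.4 CPM in cre-. It did not overlap, with a log2 fold change of 0.85 ± 0.22 (edgeR adjusted p = 0.107, DESeq2 adjusted p = 0.0102). Sox9, the transcription factor of the astrocyte lineage whose protein is nuclear, had 44.7, 43.9 and 36.6 CPM in cre+ and 37.7, 32.3, 40.9 and 31.2 CPM in cre-. Its log2 fold change of 0.23 ± 0.13 was among the smallest of the 34 and was not called in any setting (edgeR adjusted p = 0.36). Ntsr2, a neurotensin receptor, had a log2 fold change of 0.80 ± 0.62, and its cre- libraries differed by 9.53-fold among themselves.

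The spread within a genotype showed a pattern by library. Within cre+, replicate 2 was the highest for 20 of the 34 genes and replicate 1 for 4, Ntsr2, Slc6a11, Sox9 and Sparcl1. Within cre-, replicate 3 was the highest for 22 of the 34 genes and replicate 4 the lowest for 16. A mean over the 34 genes of log2 CPM, less the average of the cre- libraries, came to 0.43, 1.05 and 0.82 in the cre+ libraries. For the cre- libraries it came to 0.06, -0.19, 0.55 and -0.42. On this measure, which weighs each gene equally, cre- replicate 3 lay above cre+ replicate 1. In cre+ 3 genes varied by over 3-fold between the highest and the lowest library, F3, S100b and Slc39a12, and in cre- 10 genes did. With cre- replicate 3 left out, 19 of the 34 genes no longer overlapped between genotypes, against 10.9% of all tested genes, and with cre+ replicate 1 left out 20 did not, against 12.8%. Without any other library the count was 9 to 11, against 9.93 to 14.5% of all tested genes. Leaving out cre- replicate 3 added 9 DESeq2 calls, Agt, Aqp4, Cldn10, Gpc5, Mlc1, Ntsr2, Plpp3, Slc1a3 and Slc6a11, and ended those of Ndrg2 and Slc39a12.

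**Figure D3:**
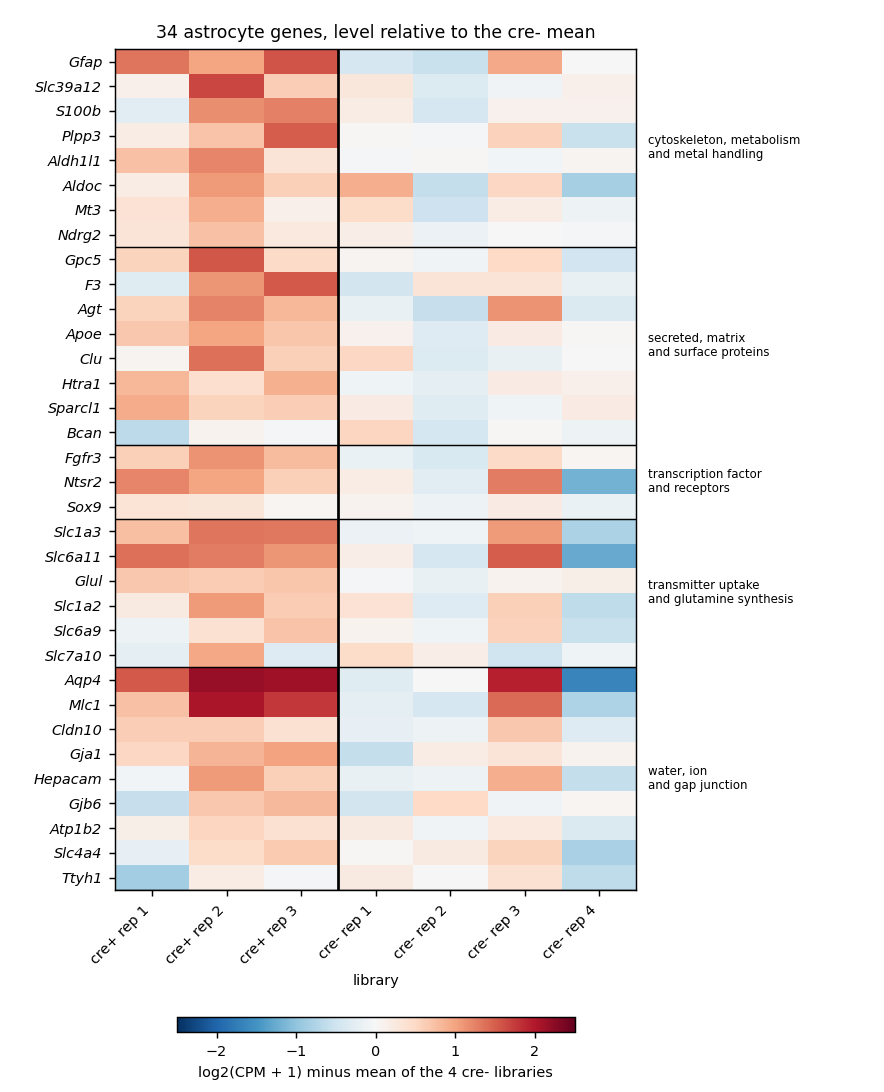
Heatmap of log2(CPM + 1) minus the mean of the 4 cre- libraries, for the 34 astrocyte genes (rows, grouped by role and ordered by fold change) in the 3 cre+ (left) and 4 cre- libraries (right); red is higher and blue lower than the cre- mean. Replicates 2 and 3 of cre+ are red in most rows, replicate 3 of cre- is red for Aqp4, Mlc1, Slc6a11 and Ntsr2 among others, and cre+ replicate 1 is pale or blue for Bcan, Ttyh1, Gjb6, F3 and S100b.

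A wider list of 30 other astrocyte genes had 25 positive fold changes and a median of 0.52. DESeq2 called 4 of them higher, S1pr1, Fam107a, Tril and Dio2, and 1 lower, Btbd17. Over all genes with an adjusted p, 6.7% were called higher and 5.48% lower. S1pr1, a sphingosine phosphate receptor also abundant in endothelium, had 376 to 423 CPM in cre+ and 169 to 322 CPM in cre-. Fam107a, a regulator of actin and focal adhesions, had a log2 fold change of 1.14 ± 0.30, and its cre+ range of 99.3 to 218 CPM lay above its cre- range of 42.9 to 79.9 CPM. Btbd17 had 8.42 to 9.86 CPM in cre+ and 11.3 to 15.2 CPM in cre-, a difference in the opposite direction.

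A further list held genes that astrocytes are known to induce after injury or inflammation. Of 28 listed, 27 were tested, 21 were positive with a median of 0.45, and DESeq2 called Cp, Vim, Tm4sf1 and S1pr3 higher and none lower. The shares over all genes with an adjusted p were 6.7% and 5.48%. Cp, Tm4sf1 and S1pr3 were highest in cre+ replicate 1, as most endothelial markers below were, and Vim in cre+ replicate 3. Which cells these transcripts came from was not tested. Vim, an intermediate filament protein also made in endothelium, had 512 to 610 CPM in cre+ and 302 to 459 CPM in cre-. Serpina3n, a protease inhibitor often used as a sign of reactive astrocytes, had 1.02 to 1.44 CPM in cre+ and 1.604 to 6.30 CPM in cre-, with an edgeR adjusted p of 0.203; it was picked after its values were seen. Lcn2, another such gene, was at 0.485 to 1.82 CPM in cre+ and 0.630 to 1.65 CPM in cre-. Of 12 radial glia and neural stem cell genes, 8 were positive with a median of 0.47. DESeq2 called Prom1 and Nes higher, against the same 6.7% of all genes. Sox2, which astrocytes also transcribe, had 71.98 to 97.98 CPM in cre+ and 98.4 to 117 CPM in cre- and was not called (DESeq2 adjusted p = 0.131).

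Markers of other cells also differed between the genotypes. Beside the DESeq2 counts below, 6.7% of all genes with an adjusted p were called higher and 5.48% lower. All 12 endothelial markers had positive fold changes, with a median of 0.62, and DESeq2 called 9 of them higher. Of 12 mural cell markers 11 were positive, with a median of 0.76, and 7 were called higher. They took 0.0619 to 0.0852% of counts in cre+ and 0.0445 to 0.0588% in cre-, with Tagln at 0 in 4 libraries. All 12 oligodendrocyte markers were positive, with a median of 0.66, and 3 were called higher. They took 0.0965 to 0.228% of counts in cre+ and 0.0950 to 0.161% in cre-. All 12 neuron markers were negative, with a median of -0.75, and 3 were called lower. The part of these cells in the astrocyte result was not tested.

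The endothelial list was highest in cre+ replicate 1, where 11 of its 12 genes peaked. Of the 34 astrocyte genes, Sparcl1 and Sox9 peaked there. In cre+ replicates 2 and 3 the endothelial list stood 0.43 and 0.44 log2 units above the cre- mean, and in cre- replicate 4 it stood 0.34 above. A peak library does not tell which cells a transcript came from. Microglia markers, a class the beads should also remove, took 0.0790 to 0.126% of counts in cre+ and 0.0245 to 0.208% in cre-, with 11 of 12 positive and none called. Their highest library was cre- replicate 3, at 1.76 log2 units above the cre- mean. Among the cre- libraries alone, that library was the highest for 22 of the 34 astrocyte genes, and among all 7 libraries for 4. The lowest library of the microglia markers was cre- replicate 1, at -1.39. Ependymal, choroid plexus and meningeal fibroblast markers were positive for 12 of 12 genes each, with medians of 0.83, 0.79 and 1.01, and DESeq2 called 3, 0 and 4 of them higher. The ependymal list took 0.0133 to 0.0200% of counts in cre+ and 0.00740 to 0.0131% in cre-, with Tmem212 at 0 in 2 libraries. The choroid plexus list took 0.922 to 2.84% in cre+ and 0.603 to 1.37% in cre-, and the fibroblast list 0.0519 to 0.113% in cre+ and 0.0383 to 0.05% in cre-. The oligodendrocyte precursor list had a median of 0.06, with none called higher and 1 called lower.

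**Figure D4:**
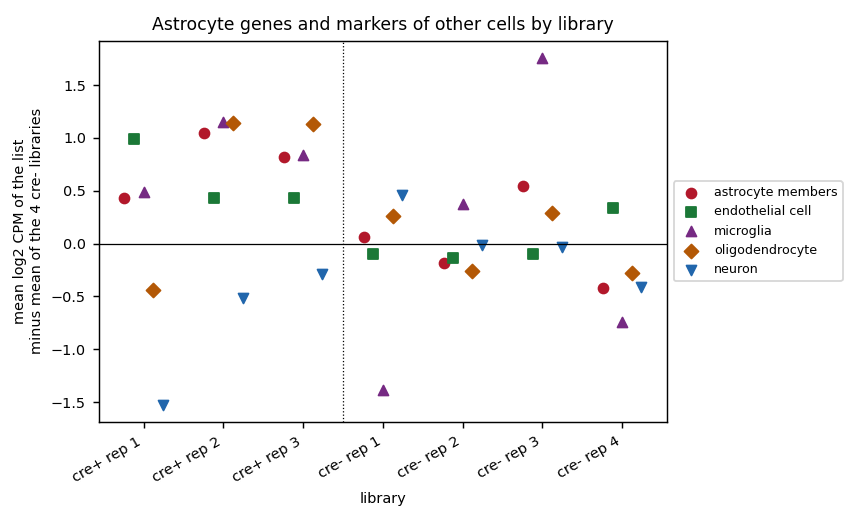
Mean log2 CPM of each marker list minus its mean over the 4 cre- libraries (vertical axis), by library, cre+ on the left and cre- on the right, for the 34 astrocyte genes and 12 markers each of endothelial cells, microglia, oligodendrocytes and neurons. The astrocyte points lie at 0.43 to 1.05 in cre+ and at -0.42 to 0.55 in cre-, the endothelial point is highest in cre+ replicate 1, and the microglia point is highest in cre- replicate 3.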

How the data were processed

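Reads of poly(A) libraries were trimmed with fastp, aligned to GRCm39 with STAR and counted per gene with StringTie by the authors, who deposited whole counts for 46382 rows. Versions and strand use: not given in the sources used here. A deposited normalized table was not used. Dropping 49 repeated symbols left 46333 genes.

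Counts were tested with edgeR 4.0.16 in R 4.3.3 (quasi-likelihood F-test on genotype, TMM, filterByExpr, robust; Benjamini-Hochberg over 21542 genes, threshold 0.05). DESeq2 1.42.0 (16345 genes with an adjusted p) and limma-voom 3.58.1 were run beside it. Errors are SE unless marked SD. Mean log2 CPM of lists used a prior count of 2. Lengths and overlaps came from GENCODE M39. The tests were also run on simulated counts, with changes larger than the median of the astrocyte genes. That run does not tell how the tests perform at the size of that median.

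Groups and replicates follow the labels. Replicates are littermate mice, so p-values measure the spread between animals. The members and lists were chosen with earlier results of these data known. Every member is accounted for. Values per library are given for members called by DESeq2 or without overlap, the 6 smallest p-values, the most negative fold change and 8 classic markers; other lists are described by counts and up to 4 genes of smallest p, and further genes are marked or given as examples chosen after their values were seen. Alternatives changed the normalization, filter, test and replicate block, and left out each library in turn.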

Additional observations from a re-analysis of the deposited data

Results flagged for a closer look

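Among 53 sets of 4 cre- values (the CPM of each of the 34 astrocyte genes, the list means and the share of counts), 4 held a library far from the other 3, by Dixon's 95% limit on the gap to the nearest library as a share of the range. Chance gives about 1 in 20 such sets when values are normal and sets independent. The sets here share libraries and partly genes, so this rate is only a rough guide. Of these, 3 were single genes, Mlc1 (gap of 0.873 of the range), Agt (0.862) and Cldn10 (0.854), each with cre- replicate 3 as the high library, at 23.6, 5.95 and 2.46 CPM. The fourth was the mean log2 CPM of the endothelial markers, with cre- replicate 4 as the high library (0.921).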

How the results depend on the processing

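Over the edgeR and limma-voom settings, 0 of the 34 astrocyte genes were called, while DESeq2 called 10. The median log2 fold change stayed between 0.64 and 0.83. Scaling by library totals alone moved the median of all genes to -0.16 and gave the lowest median of the 34, 0.64. DESeq2 called 6 to 17 higher with 1 library left out, against 2.52 to 7.48% of the genes with an adjusted p. Those genes numbered 15005 to 23416, depending on the library left out. It called 9 with TMM factors (6.66%) and 11 with the replicate block (3.65%), and 0 lower throughout. Of these 11, 8 were among the 10 main calls. Of 476 fold changes of single genes under alternatives, 3 changed sign, all with 1 library left out: Slc7a10 ran from -0.34 to 0.45, Ttyh1 from -0.45 to 0.020 and Bcan from -0.36 to 0.0011.

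The replicate block in edgeR gave a median of 0.73, with 13 genes at an unadjusted p below 0.05 and 0 called. Deviations of same-numbered libraries correlated at -0.027, -0.004 and 0.088 over genes, and those of differently numbered libraries at -0.111 to 0.16. As deviations from means of only 3 and 4 libraries, these values cannot tell whether the numbers pair the animals. The lowest counts, which carry the largest counting error, were 26 for Aqp4 and 59 for Cldn10.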
